A study of Homo sapiens with 8 samples.

Results

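The replication-dependent histone genes were followed through 8 arrays of SKBR3, a human breast cancer line with amplified HER2. Members were taken by name: every probe set of the array whose annotated symbol begins with H1- and a number, or with H2AC, H2BC, H3C or H4C and a number. A probe set is the group of short probes with which the array reads a transcript. This gave 78 of the 54675 probe sets, 14 of H1, 16 of H2A, 20 of H2B, 10 of H3, 16 of H4 and 2 that carry both H2A and H3 symbols. They carry 69 gene symbols of the 21357 on the array, of which 50 have a probe set of their own, and 20 of the 78 carry several symbols, up to 14 on 1 probe set. The name rule also takes in 10 probe sets of H1 genes that are not replication-dependent or of pseudogenes (H1-6, H1-7, H1-8, H1-9P, H1-10, H2AC5P and H4C10P) and 1 of H1-10-AS1, an antisense RNA. The other 67 are called replication-dependent here.

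Every culture, controls included, was first kept for 4 h in medium containing 10% serum stripped of steroids with charcoal, and RNA was taken after 3 h of treatment. Each condition had 1 array. The 3 control arrays were untreated cells, cells with 0.1% ethanol (the vehicle of estradiol) and cells with 1e-06 M BSA (the carrier of the coupled hormone). The hormone was free estradiol or E2-BSA, its conjugate with albumin, both at 1e-06 M. The antagonist G15 was used alone at 1e-05 M, and E2-BSA was also combined with 1e-05 M of either ICI or G15. G15 is an antagonist of the membrane estrogen receptor GPER, and ICI is named only by these letters in the labels. SKBR3 is 1 tumour line and is known for having no nuclear estrogen receptor alpha. With 1 array per condition there is no replicate error and no test, and every difference below compares 2 arrays.

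The deposited values are centred on each probe set, so they give no level, and a histone gene that SKBR3 does not express cannot be recognised from them. For the same reason the identity of the line could not be checked by marker levels: 14 probe sets of 8 markers were present, and those of ERBB2, the amplified HER2 gene, had ranges of 0.97, 0.30 and 0.098 over the arrays. The 23 probe sets of 6 markers of other cell types had a median range of 0.48. The values were read as log2, a base that no source used here states. Over all 54613 probe sets without controls the median was 0 on every array, and the SD over probe sets lay between 0.111 (estradiol) and 0.281 (ethanol). The SD of BSA minus untreated, 2 arrays without hormone or antagonist, was 0.228 over all probe sets and 0.210 over the histone probe sets.

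Histones package DNA into nucleosomes: H2A, H2B, H3 and H4 form the core around which DNA is wound, and H1 binds the linker between cores. Their replication-dependent genes lie in clusters and are transcribed in S phase, when new DNA has to be packaged. The messages end in a stem-loop bound by SLBP in place of a poly(A) tail, and a few genes, such as H2BC21, H2BC12, H2BC5, H2BC4, H2AC6 and H1-2, are known to make polyadenylated forms as well. Labelling of RNA for arrays of this type usually starts at the poly(A) tail, and the labels do not name the primer. Of the 69 symbols, 56 belong to genes on chromosome 6 and 6 to genes on chromosome 1.

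Promoters are shown for H2BC11, H2BC5, H2AC6 and H1-2, which are named in the results below. H2BC11 and H2AC6 hold the octamer described next, and H2BC5 and H1-2 do not. Each is the RefSeq window of 300 bases, 250 before to 50 after the transcript start, on GRCh38.p14. Capitals mark the octamer ATTTGCAT, the site known to be bound by the factor Oct-1 in H2B promoters, CCAAT and TATAAA, on either strand. The windows are chr6:27132746-27133045 (minus strand) for H2BC11, chr6:26157871-26158170 (plus) for H2BC5, chr6:26123922-26124221 (plus) for H2AC6 and chr6:26056421-26056720 (minus) for H1-2.
H2BC11: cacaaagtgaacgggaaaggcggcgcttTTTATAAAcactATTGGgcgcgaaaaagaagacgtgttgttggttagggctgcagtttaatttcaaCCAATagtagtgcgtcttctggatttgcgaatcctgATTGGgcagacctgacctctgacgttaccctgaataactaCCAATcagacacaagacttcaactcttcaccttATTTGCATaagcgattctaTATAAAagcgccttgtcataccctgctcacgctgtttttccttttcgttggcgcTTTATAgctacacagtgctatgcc
H2BC5: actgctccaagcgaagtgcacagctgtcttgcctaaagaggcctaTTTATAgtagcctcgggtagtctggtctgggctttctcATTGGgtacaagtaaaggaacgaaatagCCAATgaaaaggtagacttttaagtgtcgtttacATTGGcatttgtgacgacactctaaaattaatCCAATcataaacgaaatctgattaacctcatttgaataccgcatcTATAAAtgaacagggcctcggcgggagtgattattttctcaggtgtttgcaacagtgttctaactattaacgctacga
H2AC6: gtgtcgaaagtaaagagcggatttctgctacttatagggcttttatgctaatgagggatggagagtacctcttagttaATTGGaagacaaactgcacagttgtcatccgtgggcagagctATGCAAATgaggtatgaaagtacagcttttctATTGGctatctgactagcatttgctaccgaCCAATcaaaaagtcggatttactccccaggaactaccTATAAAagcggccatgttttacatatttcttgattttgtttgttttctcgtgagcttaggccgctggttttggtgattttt
H1-2: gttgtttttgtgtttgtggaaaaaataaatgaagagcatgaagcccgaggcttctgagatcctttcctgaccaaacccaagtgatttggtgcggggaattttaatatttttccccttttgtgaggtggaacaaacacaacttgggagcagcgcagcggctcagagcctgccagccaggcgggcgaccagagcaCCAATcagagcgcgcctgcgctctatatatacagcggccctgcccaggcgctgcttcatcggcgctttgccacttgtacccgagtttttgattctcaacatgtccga

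Of the 69 symbols, 59 have a promoter in the RefSeq table. The octamer was found in 13 of 16 H2B genes and 8 of 13 H2A genes, in 1 of 8 H3 genes and in 0 of 9 H1 and 0 of 13 H4 genes, against 2.19% of all 27305 genes with a promoter. CCAAT was present in all 13 H2A, all 16 H2B and all 8 H3 genes and in 3 of 13 H4 genes, against 39.7% of all genes. TATAAA was present in 38 of the 59 (64.4%), against 14% of all genes. The windows of 8 pairs of an H2A and an H2B gene overlapped on opposite strands. H2AC6 and H2BC4, for example, share 255 bases, so the octamer shown for H2AC6 also lies in the window of H2BC4. Such a site is counted for each gene, so the family counts above are not numbers of separate sites. The H3 gene with the octamer is H3C4. Its octamer lies in a window that is also that of H2AC7, and its other window holds none. These are matches of letters, and the arrays do not measure binding.

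Across the 8 conditions the typical range of the histone probe sets was close to that of all probe sets. The range of a probe set, its highest minus its lowest value over the 8 arrays, had a median of 0.43 (log2) over the 78 histone probe sets and 0.42 over all probe sets. A range of 2-fold was reached by 0 of 78 histone probe sets and by 3.50% of all probe sets, and a range of 1.5-fold by 14 of 78 (17.9%) against 23.5%. The widest ranges were those of H1-6 (0.84), H1-7 (0.82), an H4 probe set shared by 14 symbols (0.81) and H4C4 (0.81). The heat map of all histone probe sets shows no array on which the whole set stood high or low.

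**Figure D1:**
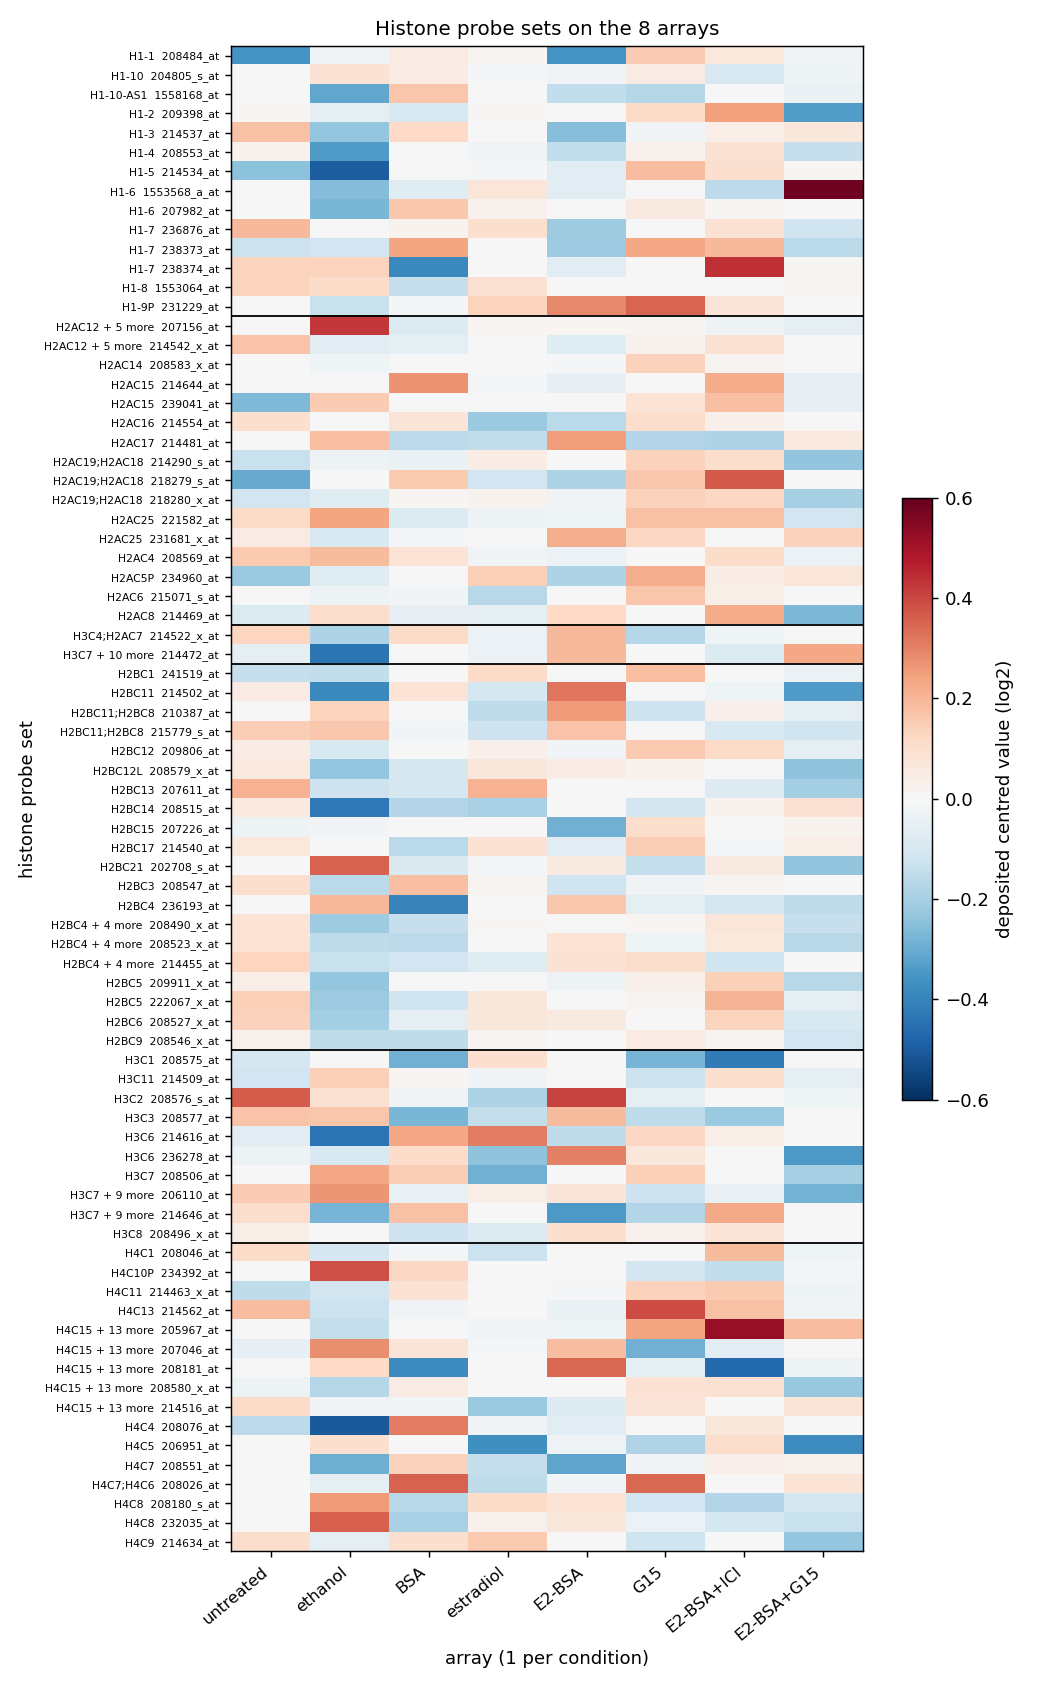
Deposited centred log2 value (colour) of the 78 histone probe sets (rows, with symbols and probe set, grouped as H1, H2A, H2A with H3, H2B, H3 and H4) on the 8 arrays (columns, 1 per condition). Most cells are pale, and the strongest are single probe sets such as H1-6 with E2-BSA plus G15 (0.58) and the H4 probe set 205967_at with E2-BSA plus ICI (0.52).

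H1 linker histones were represented by 5 replication-dependent genes, H1-1 to H1-5, with 1 probe set each. H1-2, the linker histone with a known polyadenylated form, stood at 0.0060 untreated, -0.057 with ethanol, -0.090 with BSA, 0.0067 with estradiol, 0 with E2-BSA, 0.12 with G15, 0.25 with E2-BSA plus ICI and -0.34 with E2-BSA plus G15. Its highest and lowest values were thus those of the combinations of E2-BSA with ICI and with G15. H1-5 stood at -0.25 untreated, -0.49 with ethanol, 0 with BSA, -0.0063 with estradiol, -0.065 with E2-BSA, 0.18 with G15, 0.098 with E2-BSA plus ICI and 0.0062 with E2-BSA plus G15. The ethanol array was the lowest for H1-5 and also for H1-4, which read -0.34 there. H1-1 was low on the untreated and E2-BSA arrays, at -0.36 on both, and lay between -0.020 and 0.15 on the other 6.

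The testis gene H1-6 gave the widest range of all histone probe sets through 1 array. Its probe set 1553568_a_at read 0.58 with E2-BSA plus G15 and between -0.26 and 0.071 on the other 7 arrays. The second H1-6 probe set, 207982_at, read 0 on that array and -0.28 on the ethanol array, so the 2 probe sets did not show the same high value. For H1-7, a spermatid gene with 3 probe sets, 1 probe set ran from -0.38 (BSA) to 0.44 (E2-BSA plus ICI), while the ranges of the other 2 were 0.45 and 0.41.

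Among H2A genes the array of G15 alone and that of E2-BSA plus ICI held the highest family medians, 0.12 and 0.100, and the other 6 arrays lay between -0.019 and 0. The twin genes H2AC18 and H2AC19 cannot be told apart on this array and share 3 probe sets. Probe set 218279_s_at of this twin pair read -0.30 untreated, 0 with ethanol, 0.16 with BSA, -0.12 with estradiol, -0.19 with E2-BSA, 0.16 with G15, 0.37 with E2-BSA plus ICI and 0 with E2-BSA plus G15. All 3 were below 0 on the untreated array (-0.30, -0.14 and -0.12) and above 0 with G15 alone (0.16, 0.14 and 0.14) and with ICI (0.37, 0.11 and 0.12). With E2-BSA plus G15 they read 0, -0.24 and -0.20. H2AC6, on chromosome 6, ranged from -0.17 with estradiol to 0.17 with G15, and H2AC8 from -0.27 with E2-BSA plus G15 to 0.22 with E2-BSA plus ICI.

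H2B was the family whose probe sets moved most alike. Its median was 0.060 untreated, -0.15 with ethanol, -0.091 with BSA, 0.0048 with estradiol, 0 with E2-BSA, 0.0061 with G15, 0.019 with E2-BSA plus ICI and -0.10 with E2-BSA plus G15. The ethanol array held the lowest value of 11 of 20 H2B probe sets (55%), of 25 of 78 histone probe sets (32.1%) and of 23.1% of all probe sets. H2BC5, a gene with a known polyadenylated form, read 0.14 untreated, -0.22 with ethanol, -0.12 with BSA, 0.068 with estradiol, 0 with E2-BSA, 0.017 with G15, 0.20 with E2-BSA plus ICI and -0.060 with E2-BSA plus G15. Its second probe set followed it, with 0.14 with ICI and -0.23 with ethanol as its extremes.

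Much of this likeness came from 7 H2B probe sets with the suffix _x_at, which marks probes that can match several transcripts; this group was formed after the values were seen. They belong to H2BC5, H2BC6, H2BC9, H2BC12L and the joint group of H2BC4, H2BC6, H2BC7, H2BC8 and H2BC10. Their pairwise Pearson r over the 8 arrays was 0.70 to 0.96 in 21 pairs, with a median of 0.88, and they are not independent readings because they share targets. On the ethanol array all 7 lay between -0.23 and -0.15, with E2-BSA plus G15 between -0.24 and -0.060, and on the untreated array between 0.027 and 0.14. The other 13 H2B probe sets had a median r of 0.095 over 78 pairs.

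Single H2B genes departed from that profile. H2BC21, on chromosome 1, was highest with ethanol: it read 0 untreated, 0.35 with ethanol, -0.088 with BSA, -0.0093 with estradiol, 0.054 with E2-BSA, -0.15 with G15, 0.053 with E2-BSA plus ICI and -0.24 with E2-BSA plus G15. H2BC11 read 0.049 untreated, -0.39 with ethanol, 0.084 with BSA, -0.10 with estradiol, 0.32 with E2-BSA, 0 with G15, -0.026 with E2-BSA plus ICI and -0.34 with E2-BSA plus G15. E2-BSA was thus the high array of this H2BC11 probe set, 214502_at, and ethanol and E2-BSA plus G15 the low ones. Probe sets 210387_at and 215779_s_at, which H2BC11 shares with H2BC8, were also highest with E2-BSA (0.26 and 0.17). They read 0.13 and 0.16 with ethanol and were lowest with estradiol (-0.15 and -0.12). The probe set of H2BC4 alone was lowest with BSA (-0.40) and highest with ethanol (0.20). Single probe sets of genes whose promoter windows overlap could differ on 1 array. That of H2AC6 read -0.015 with BSA where that of H2BC4 alone read -0.40. The joint probe sets that include H2BC4 read -0.14, -0.16 and -0.12 there. H2AC14 read -0.027 with ethanol where H2BC14, its partner, read -0.43, but the H2AC14 probe set has the suffix _x_at. These are single readings and do not show that the genes differ.

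For H3 and H4 the probe sets had little in common. The median pairwise r was 0.0054 over the 45 pairs of H3 and 0.00075 over the 120 pairs of H4, beside 0.083 over all 3003 histone pairs. H3C2 read 0.36 untreated, 0.089 with ethanol, -0.021 with BSA, -0.19 with estradiol, 0.41 with E2-BSA, -0.054 with G15, 0 with E2-BSA plus ICI and -0.024 with E2-BSA plus G15. The untreated and E2-BSA arrays were its 2 high ones. H3C6 has 2 probe sets that disagree: with estradiol they read 0.31 and -0.24, and with E2-BSA -0.15 and 0.30.

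For H4, 5 probe sets carry the same 14 symbols, those of genes known to encode the same protein. These probe sets did not give 1 profile: with E2-BSA plus ICI, 205967_at read 0.52 and 208181_at read -0.47, and their r over the 8 arrays was -0.64. The probe sets of H4C8 did run together (r = 0.93). They read 0.25 and 0.36 with ethanol, the highest of the 8 arrays for both, and between -0.19 and 0.11 elsewhere. Over all 28 pairs of histone probe sets with identical symbols the median r was 0.31, 7 pairs were above 0.5 and 12 below 0.

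**Figure D2:**
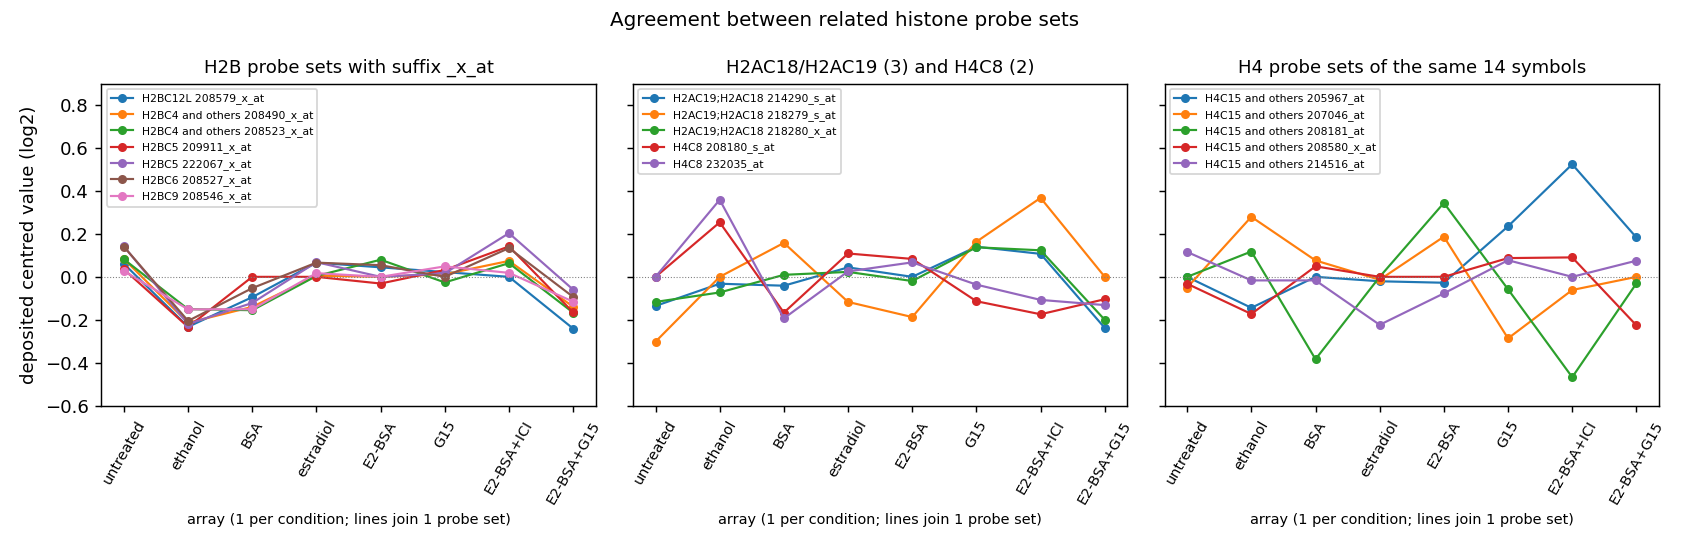
Deposited centred log2 value (vertical axis) of single probe sets (lines) on the 8 arrays (horizontal axis) for the 7 H2B probe sets with suffix _x_at (left), H2AC18/H2AC19 and H4C8 (middle) and the 5 H4 probe sets of the same 14 symbols (right). The left lines dip together with ethanol and with E2-BSA plus G15, whereas the right lines spread from -0.47 to 0.52 with E2-BSA plus ICI.

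The vehicle was compared with untreated cells to see what ethanol alone does. At 1.5-fold, 0 of 78 histone probe sets were higher, where 4.04% of all probe sets were, and 0 were lower, where 1.08% were. The median difference was -0.061 over the histone probe sets and -0.015 over all, and 29 of 78 lay above and 47 below 0, beside 43.3% and 52.6% of all probe sets. H2B and H1 leaned down, with 15 of 20 H2B probe sets (median -0.25) and 10 of 14 of H1 (median -0.16) below 0, while 10 of 16 of H2A (median 0.074) lay above 0. The lowest differences were those of H2BC14 (-0.49), H2BC11 (-0.44 at 214502_at) and H1-3 (-0.41). Probe sets 210387_at and 215779_s_at, which H2BC11 shares with H2BC8, differed by 0.13 and 0.013. The highest differences were those of an H2A probe set shared by H2AC12 and 5 other symbols (0.43), H2AC15 at 239041_at (0.42), H4C10P (0.39) and H4C8 (0.36). The other probe set of the same H2A symbols, 214542_x_at, differed by -0.24, and the other H2AC15 probe set, 214644_at, by 0. The markers of the SKBR3 line leaned the same way: 13 of their 14 probe sets were below 0, at a median of -0.14, and their part in the result was not tested.

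BSA was compared with untreated cells for the effect of the carrier. At 1.5-fold 0 of 78 differed, beside 1.79% of all probe sets higher and 0.67% lower, and the median was -0.022 against 0. In all, 30 lay above and 44 below 0, beside 48.0% and 47.1% of all probe sets. H2B again leaned down, at a median of -0.17 with 15 of 20 below 0. H1-7 at 238374_at (-0.52), H3C3 (-0.44) and H2BC4 (-0.40) were lowest. H4C4 (0.46), the H2AC18/H2AC19 probe set 218279_s_at (0.46) and H1-1 (0.41) were highest. The other H1-7 probe sets differed by -0.17 and 0.36. All comparisons with untreated share that array, and the H2B median of the untreated array was the highest of the 8.

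Free estradiol was set against its vehicle and against untreated cells. Against ethanol, H3C6 was higher by 0.75 (1.69-fold) at 1 of its 2 probe sets, and it was the only histone probe set at 1.5-fold, where 1.11% of all probe sets were higher and 3.33% lower. The other H3C6 probe set differed by -0.15. In all, 45 lay above and 33 below 0, beside 52.3% and 43.0% of all probe sets. H1-5 (0.49) and H4C4 (0.48) were next. Both of these, and also the H3C6 probe set at 1.5-fold, 214616_at, had their lowest value on the ethanol array. Against untreated, 214616_at differed by 0.37. H3C7 (-0.52), H4C5 (-0.47) and the joint H2A probe set 207156_at (-0.41) were the lowest. The other joint probe set of the same H2A symbols, 214542_x_at, differed by 0.065. In the H2B family 16 of 20 were above 0 against ethanol (median 0.17) and 5 of 20 against untreated (median -0.054). Against untreated, 0 of 78 reached 1.5-fold, beside 0.582% of all probe sets higher and 0.119% lower, and 30 lay above and 44 below 0, beside 46.8% and 46.6%. H3C2 was the lowest at -0.55 and H1-1 the highest at 0.38, and in both the untreated array was at one end of the range or close to it.

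E2-BSA was compared with BSA to show the effect of the coupled hormone. The median over the 78 probe sets was 0.0079, against 0 over all, with 40 above and 36 below 0, beside 47.6% and 48.3% of all. H2B stood at a median of 0.14 with 15 of 20 above 0, and H1 at -0.11 with 9 of 14 below 0. An H4 probe set shared by 14 symbols, 208181_at, was higher by 0.73 (1.66-fold) and was the only one at 1.5-fold, where 1.40% of all probe sets were higher and 1.37% lower. H2BC4 (0.56), H3C3 (0.46) and H3C2 (0.43) followed. A joint H3 probe set, 214646_at (-0.52), H4C7 (-0.45) and a probe set of H1-7 (-0.45) were the lowest. The other probe sets with the same 14 symbols as 208181_at differed by -0.028, 0.11, -0.049 and -0.060. The other joint probe set of the same H3 symbols, 206110_at, differed by 0.12, and the other H1-7 probe sets by -0.23 and 0.32. Against untreated, 0 of 78 reached 1.5-fold, beside 0.771% of all probe sets higher and 0.461% lower, and the median was -0.0098. There 33 lay above and 41 below 0, beside 51.5% and 43.8% of all, and H2B lay at -0.051 with 14 of 20 below 0. The sign of the H2B family thus turned with the comparator.

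The 2 forms of the hormone differ by the attached albumin and have the same labelled dose, 1e-06 M, and time, 3 h. The labels do not say whether the dose counts the conjugate or the hormone on it. For estradiol minus E2-BSA the histone median was 0.0094, against -0.0042 over all probe sets, and 44 lay above and 31 below 0, beside 44.0% and 50.7%. H3C2 differed by -0.59 (1.51-fold lower with estradiol) and was the only one at 1.5-fold, where 0.502% of all probe sets were higher and 0.255% lower. Its value was -0.19 with estradiol, 0.41 with E2-BSA and 0.36 untreated. In H1, 13 of 14 were above 0, with a median of 0.11. This was 1 pair of compounds, and with 1 array for each form no interval can be given, and these values do not show that the forms act alike.

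G15 alone was compared with untreated cells. At 1.5-fold 0 of 78 differed, where 0.811% of all probe sets were higher and 0.692% lower. H1-1 (0.51), H2AC18/H2AC19 (0.47), the pseudogene H2AC5P (0.44) and H1-5 (0.43) were highest. All 4 were below 0 on the untreated array. H3C2 (-0.42), H3C3 (-0.32) and the probe set of H3C4 and H2AC7 (-0.30) were lowest. H2A stood at a median of 0.078 with 12 of 16 above 0, H2B at -0.068 with 15 of 20 below 0 and H3 at -0.097 with 7 of 10 below 0, while the whole set lay at -0.014 against 0.0021. Of the 78, 35 lay above and 41 below 0, beside 50.3% and 45.0% of all probe sets.

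Each antagonist was then added to E2-BSA. With ICI the histone median was 0.064 above E2-BSA alone, against 0 over all probe sets, and 46 of 78 were above and 28 below 0, beside 49.9% and 46.6% of all. The only one at 1.5-fold was the H4 probe set 208181_at, lower by 0.81, where 1.85% of all probe sets were lower and 1.92% higher. Another probe set of the same 14 symbols, 205967_at, was higher by 0.55. H1 leaned up (median 0.20, 10 of 14 above 0, with H1-1 to H1-5 all above 0), as did H2A (0.14, 13 of 16), and H2B did not (0.0093, 10 above and 9 below 0). With the probe sets that have several genes or the suffixes _x_at and _s_at left out, the median of the remaining 44 was 0.13.

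With G15 added to E2-BSA, the histone median was -0.042, against 0, and 28 of 78 were above and 48 below 0, beside 45.3% and 50% of all. At 1.5-fold 1 of 2 H1-6 probe sets was higher by 0.65 (1.57-fold). H2BC11 (-0.66 at 214502_at) and 1 of 2 H3C6 probe sets (-0.65) were lower, where 0.820% of all probe sets were higher and 0.813% lower. The other H1-6 probe set differed by 0 and the other H3C6 probe set by 0.15. For H2BC11 the E2-BSA array was the highest of the 8. The difference of the G15 combination from E2-BSA, less the difference of G15 alone from untreated cells, had a median of -0.075 over the histone probe sets and -0.022 over all. In the H2B family 16 of 20 were below 0, at a median of -0.14. Among the 44 histone probe sets of any family with 1 gene and no suffix _x_at or _s_at, 20 were above and 22 below 0. Their median was -0.00018. In H1, 10 of 14 probe sets were above 0. With replication-dependent genes only, 21 of 67 were above and 45 below 0, at a median of -0.080. What makes these choices of probe sets differ was not tested.

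Against G15 alone, the combination of E2-BSA and G15 lay lower over the histone set. The median was -0.10, against -0.0052 over all probe sets, and 55 of 78 (70.5%) were below 0, where 50.8% of all probe sets were, and 22 were above 0, where 44.5% were. H2B (17 of 20, median -0.11) and H2A (14 of 16, median -0.13) carried most of this, and H3 was even (5 and 5). H1-2 (-0.45), H4C13 (-0.42) and 1 of the H3C6 probe sets (-0.41) were lowest. Of the 78, 0 reached 1.5-fold on this pair, where 0.778% of all probe sets were higher and 0.516% lower. H1-6 at 1553568_a_at (0.58) was just inside that bound, and its other probe set differed by -0.056. Among the 44 probe sets of single genes 30 were below 0 (median -0.11). Markers of other cell types leaned the same way, with 18 of 23 probe sets below 0 at a median of -0.11, and their part in the result was not tested.

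Side by side, the 2 antagonist combinations gave the most one-sided histone difference of the 12 comparisons. With ICI rather than G15 beside E2-BSA, 57 of 78 (73.1%) were higher, where 51.9% of all probe sets were, and 21 were lower, where 43.7% were, and the median was 0.085 against 0.011. The count was 13 of 16 in H2A, 16 of 20 in H2B, 8 of 10 in H3, 10 of 14 in H1 and 10 of 16 in H4. All 7 probe sets of the 6 genes described as polyadenylated were above 0, at a median of 0.26 and from 0.038 (H2AC6) to 0.58 (H1-2). This was not particular to them: the 7 H2B probe sets with suffix _x_at were all above 0 too, at a median of 0.23. Those of H2BC5 are in both groups. The joint probe sets that include H2BC4, not counted as polyadenylated, differed by 0.21, 0.23 and -0.12. H1-2 was higher by 0.58, H2AC8 by 0.49, H4C5 by 0.48 and H2AC18/H2AC19 by 0.37. H1-6 was lower by 0.74 at 1553568_a_at, the only one at 1.5-fold, where 0.791% of all probe sets were lower and 0.663% higher. The other H1-6 probe set differed by 0.0055. Among the 44 probe sets of single genes 33 were above 0, at a median of 0.082. These 3 comparisons of the G15 combination share its array, on which 16 of 78 histone probe sets held their lowest value (20.5%, beside 11.1% of all probe sets).

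**Figure D3:**
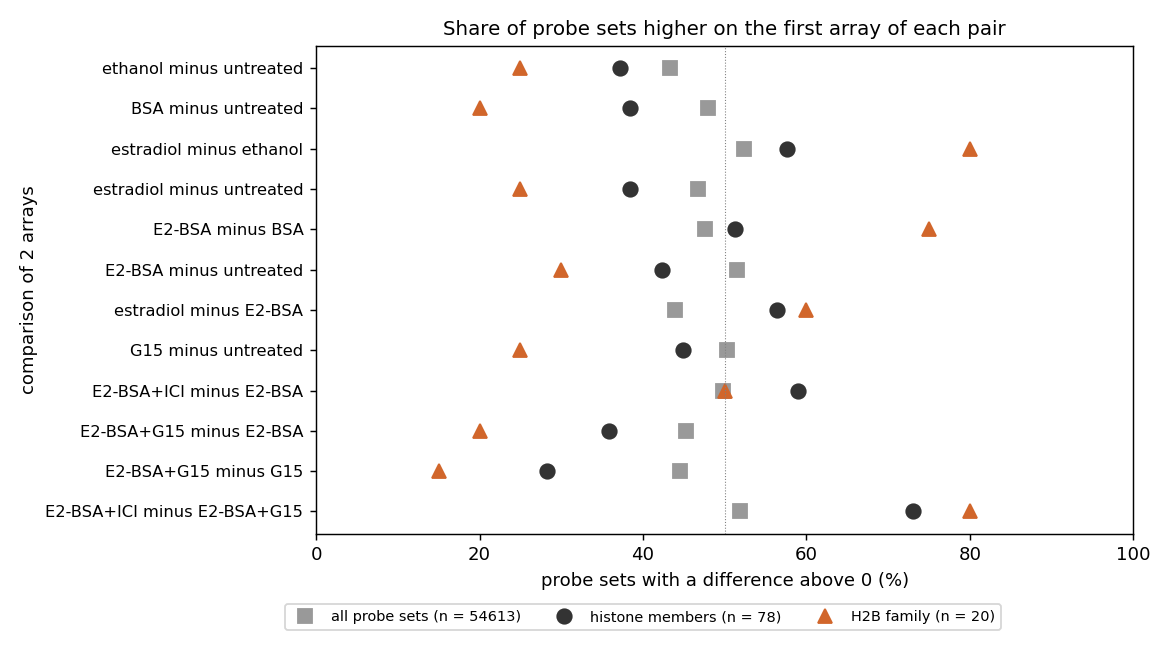
Share of probe sets (horizontal axis, percent) with a difference above 0 in each of the 12 comparisons of 2 arrays (vertical axis), for all probe sets (grey squares), the 78 histone probe sets (black circles) and the 20 of H2B (orange triangles). The histone share is farthest from that of all probe sets for the ICI against the G15 combination (73.1% beside 51.9%) and for E2-BSA plus G15 minus G15.

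**Figure D4:**
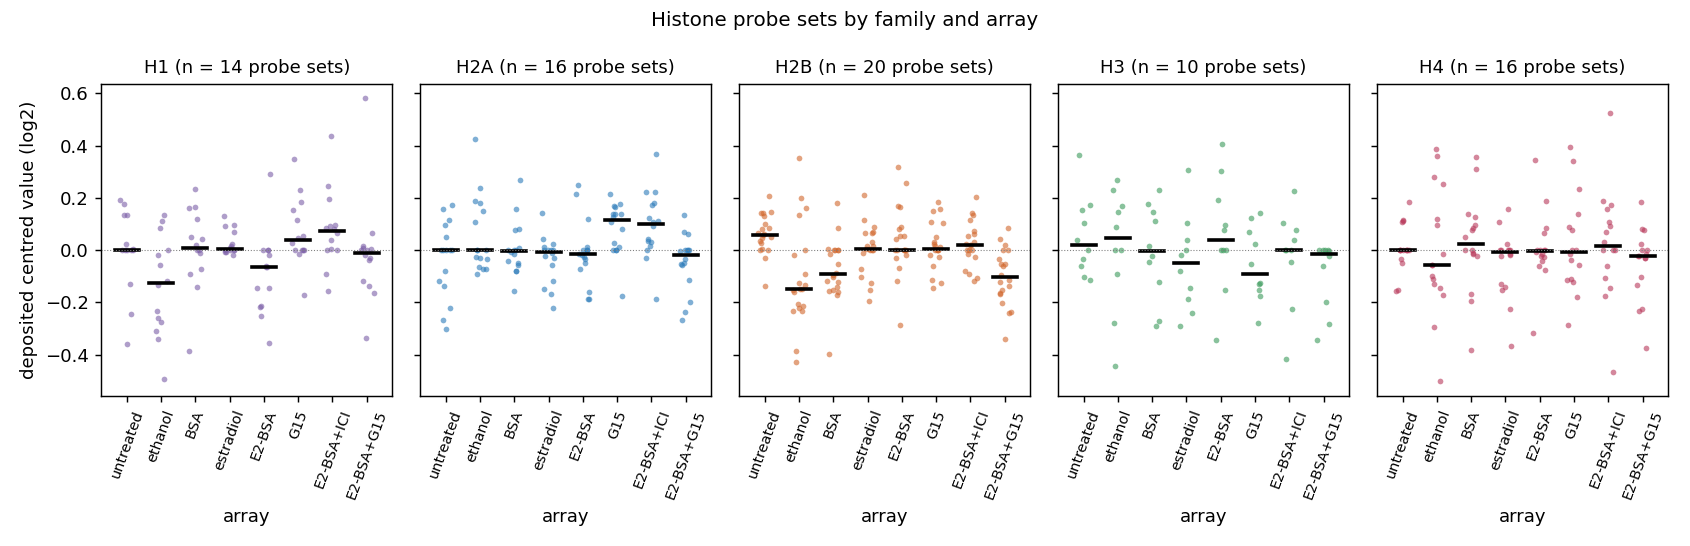
Deposited centred log2 value (vertical axis) of each probe set (points, shifted sideways at random) on the 8 arrays (horizontal axis) in the 5 histone families, with the family median as a black bar. The H2B bar is lowest with ethanol (-0.15) and with E2-BSA plus G15 (-0.10), and the H2A bar is highest with G15 (0.12) and E2-BSA plus ICI (0.100).

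Genes that make and process histone messages were read beside the histones. SLBP, which binds the stem-loop, ranged from -0.25 with ethanol to 0.090 with E2-BSA plus G15. NPAT, the coactivator of histone transcription in S phase, has 3 probe sets, which read 0.24, 0.14 and -0.21 with ethanol. Of the 58 probe sets of the 23 measured genes in this list, 44 were above 0 for E2-BSA minus BSA (median 0.13) and 44 for E2-BSA minus untreated (median 0.072). Over all probe sets 47.6% and 51.5% were above 0. LSM11, a subunit of the U7 particle that cuts histone messages, was lower with BSA than untreated by 0.80 and 0.69 at 2 of its 4 probe sets, and 1 of them was higher by 0.66 with E2-BSA than with BSA. Of all probe sets, 0.67% were 1.5-fold lower in the first comparison and 1.40% higher in the second. At 1.5-fold with ICI against E2-BSA, the S-phase kinase CDK2 (-0.75) and its partner cyclin CCNE2 (-0.81) were lower at 1 probe set each. Of all probe sets, 1.85% were lower and 1.92% higher there.

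Histone chaperones carry histones to DNA. Of the 52 probe sets of their 20 genes, 2 were at least 2-fold higher when ICI was added to E2-BSA, and the same was counted for G15. Of all probe sets, 0.181% were 2-fold higher with ICI and 0.112% with G15. NASP, a chaperone of H1, H3 and H4, was higher by 1.84 with ICI and 2.18 with G15 at 242918_at. ATRX, which helps to deposit the variant H3.3, was higher by 2.35 and 2.01 at 208859_s_at. With G15 alone against untreated these probe sets were higher by 1.94 and 1.33, and with BSA by 1.5 and 0.75. The other 2 probe sets of NASP lay between -0.18 and 0.16 on all 8 arrays, and the other 3 of ATRX between -0.32 and 0.33, so 1 probe set of each gene carried the difference. HJURP, the chaperone of the centromeric H3, was lower with ethanol than untreated by 0.88.

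Replication-independent variants were counted from 24 probe sets of 8 genes. For ethanol minus untreated 17 of them were below 0 (median -0.074), beside 52.6% of all probe sets. H2AJ, an H2A variant with a polyadenylated message, read 0.96 with ethanol at 220936_s_at and between -0.13 and 0.054 on the other arrays, while its other 3 probe sets read -0.0012, 0.012 and 0.25 with ethanol. H2AX was higher with G15 than untreated by 0.81 at 1 of 4 probe sets. In the list of G1/S and DNA replication genes, which are active in the phase in which histones are made, 0 of 55 probe sets of 27 genes reached 2-fold in any of the 12 comparisons. Of all probe sets, 0.0165% to 1.09% did so in a comparison. A range of 1.5-fold over the 8 arrays was reached by 8 of the 55 (14.5%), against 23.5% of all probe sets. The median difference of this list was -0.14 for BSA minus untreated with 45 of 55 below 0, beside 47.1% of all probe sets. For E2-BSA minus BSA it was 0.12 with 46 of 55 above 0, beside 47.6%. Both comparisons use the BSA array. The median value of the list was 0.039 untreated, -0.063 with BSA and 0.048 with E2-BSA. Between the ICI and the G15 combination the median difference of the list was -0.050, with 33 of 55 below 0, beside 43.7% of all probe sets. The histone median was 0.085.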

How the data were processed

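Total RNA of SKBR3 cells was labelled with biotin and hybridized, per the labels' protocols, to 8 Affymetrix arrays with 54675 probe sets each. The deposited values are a table of log2 values between -2.27 and 7.85. In every probe set at most 4 arrays lie above 0 and at most 4 below, as values centred on each probe set do. The sources used here do not give the authors' summarization, normalization, software or log base, and the base was read as 2. Values were used as deposited, without a filter, since they hold no level, and the 62 control probe sets were left out.

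Symbols came from the platform annotation, and all 78 members matched a current RefSeq record (GRCh38.p14 table). Differences of 2 arrays were taken per probe set for 12 comparisons and counted at 1.5-fold, with log2 thresholds of 0.32 and 1 as alternatives, beside the same count over all 54613 probe sets. There is no test and no p-value, and the number of arrays limits the precision. Named probe sets were up to 6 with the largest difference each way per comparison, those at 1.5-fold, the widest of each family, SLBP, NPAT, and list genes at 1.5-fold; other named genes and probe sets, the examples of shared promoters and second probe sets among them, were chosen after their values were seen. The members and gene lists were chosen with earlier results of these data known. Other alternatives were array centring, quantile normalization, other probe set choices, genes as the unit and BSA as comparator. Python 3.11.15, pandas 2.3.3 and NumPy 2.4.6 were used, and the counting was tested on simulated data. Other genes of the gene lists had no probe set of 1 gene in the table and were not analysed here.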

Additional observations from a re-analysis of the deposited data

How the results depend on the processing

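With 1 array per condition no array could be left out of a group, and the precision of every value is limited by that number. No paired analysis was possible because each condition has 1 array. A median was taken to have moved when it changed by at least 0.033, the SD of the histone median over the untreated, ethanol and BSA arrays. Of 65 recomputed medians 55 moved by less, 3 changed sign, and all 3 had started below 0.033 in size. Array centring gave 12 of the 65 and could move none, since the median of every array was already 0. Quantile normalization changed no median by more than 0.036, and the 8 differences at 1.5-fold kept their sign under it. The causes of the changes below were not tested.

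Medians moved as follows. Quantile normalization gave -0.058 for BSA minus untreated and 0.036 for estradiol minus ethanol. Without probe sets of several genes and the suffixes _x_at and _s_at, the median was -0.055 for E2-BSA minus untreated, 0.043 for estradiol minus E2-BSA, 0.13 for ICI added to E2-BSA and -0.00018 for G15 added to E2-BSA. With replication-dependent genes only it was 0.041 for E2-BSA minus BSA and -0.080 for G15 added to E2-BSA. With BSA as comparator it was 0 for estradiol and 0.052 for G15.

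Counts at 1.5-fold were between 0 and 3 and moved easily. At 2-fold, which 0.0165% to 1.09% of all probe sets passed in a comparison, all were 0. At a log2 threshold of 0.32, which 6.45% to 20.3% of all probe sets passed in a comparison, they were 18 for ethanol minus untreated, 10 for BSA minus untreated, 13 for estradiol minus ethanol, 6 for estradiol minus untreated, 15 for E2-BSA minus BSA, 5 for E2-BSA minus untreated, 12 for estradiol minus E2-BSA, 10 for G15 minus untreated, 13 for ICI added to E2-BSA, 12 for G15 added to E2-BSA, 10 for the latter array minus G15 alone and 13 for the ICI minus the G15 combination. Quantile normalization gave 1 for BSA, estradiol and G15 each minus untreated and for the G15 combination minus G15, 2 for estradiol minus ethanol and for ICI minus G15 combinations, and 3 for estradiol minus E2-BSA. With BSA as comparator the count was 3 for ethanol, 0 for estradiol and 1 for the G15 combination. With genes as the unit it was 0 for estradiol minus ethanol, E2-BSA minus BSA, ICI added to E2-BSA and ICI minus G15 combinations, and 1 for G15 added to E2-BSA. Without probe sets of several genes and the 2 suffixes it was 0 for E2-BSA minus BSA, estradiol minus E2-BSA and ICI added to E2-BSA. With replication-dependent genes only it was 0 for ICI minus G15 combinations.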
